A study of Bos taurus with 8 samples.

Results

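Notch signaling was followed through 9 genes: the receptors NOTCH1, NOTCH2 and NOTCH3, the ligands JAG1, DLL1 and DLL4, and the transcription factors HES1, HEY1 and HEYL, which are known targets of the pathway. They were picked by gene symbol, with earlier results of these data known, and each matched a single row among the 21880 genes counted. Notch passes signals between touching cells: a ligand on the surface of a cell binds a receptor on its neighbor, the receptor is cut by an ADAM protease and then by gamma-secretase, and the freed intracellular part enters the nucleus, where it joins the DNA-binding protein RBPJ and switches on HES and HEY genes. In skeletal muscle the pathway is known for holding satellite cells, the stem cells of the muscle fiber, in quiescence and for restraining their differentiation. In blood vessels it is known for arterial identity of the endothelium and for signaling from endothelium to the surrounding smooth muscle.

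The cells came from semitendinosus muscle of Belgian Blue cattle, calves and adults. Single-cell RNA sequencing (10x Genomics, which counts unique molecular identifiers, UMIs, at the 3' end of transcripts) was run on 5 libraries, 1 per timepoint, each a pool of the donors (10 animals in Muscle, 9 in the others), who were told apart by genotype. Muscle held unsorted cells straight after collagenase digestion, and P0 the cells that had adhered to fibronectin during 72 h in a growth medium without serum. P2, P5 and P8 (the passage numbers) held unsorted cultures of donors 1, 2 and 9 on fibronectin, cultures sorted at 72 h as satellite cells (SCs) of donors 5, 6 and 10 on laminin-521, and cultures sorted as fibro-adipogenic progenitors (FAPs) of donors 4, 7 and 8 on collagen I; donor 3 entered Muscle only. Every animal was of 1 breed with hypertrophied muscle, no untreated or genetic control was part of the design, and with 1 library per timepoint a difference between timepoints and a difference between libraries cannot be told apart.

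The deposited cell tables labelled 36129 cells with 11 types: FAPs, SCs, vascular and lymphatic endothelial cells (VECs, LECs), smooth muscle and mesenchymal cells (SMMCs), macrophages, lymphocytes, neutrophils, glial cells, tenocytes and myocytes. The authors named the types from clusters of this same expression data, so that differences between types are not independent of the names. The libraries held 2772 to 10405 cells and 20977722 to 252316585 UMIs, with a median of 4184 UMIs per cell in Muscle and 18340 to 27239.5 in the cultures, and 129 barcodes occurred in 2 libraries. The labels carried their markers in Muscle, with CALCR at 53.6 to 229 UMIs per 1000000 UMIs (CPM) in SCs and at 0 in FAPs and SMMCs, but CHRDL2 was at 0 in SCs at P2, and RGS5 was at 0 to 13.2 CPM in SMMCs at P0 against 1084 to 2338 in Muscle.

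For each donor and type with at least 10 cells the UMIs were summed, and levels are given in CPM of that sum, as mean ± SD over donors. CPM compares 1 gene between cells, not 1 gene with another, since the share of a transcript's molecules captured at the 3' end differs between genes. In the tests between conditions (edgeR's quasi-likelihood test over all genes, Benjamini-Hochberg adjusted) calling a gene took an adjusted p under 0.05 together with a log2 fold change beyond 1 in either direction. A gene left out by the filter on low counts is given as not tested.

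Fresh muscle was first read for where each receptor lay. Among the 7 types with sums from at least 4 donors, NOTCH3, the receptor of vascular smooth muscle, was highest in SMMCs and NOTCH1, the receptor of endothelium and of many stem cells, in the endothelial types, while NOTCH2 was highest in FAPs and macrophages and near 0 in VECs. Of the rare types, given further on from pooled cells, neutrophils and tenocytes had NOTCH2 above the FAP level and neutrophils NOTCH1 near the LEC level. NOTCH3 was at 422.6 ± 182.9 CPM in SMMCs (n = 10; lowest 115, median 403, highest 697), at 74.0 ± 22.3 in SCs (46.6, 69.3 and 113) and at 12.6 ± 11 in FAPs (3.18, 8.04 and 36.9), and it was under 5 CPM on average in VECs, LECs, lymphocytes and macrophages. The SMMC values lay above all SC values and these above all FAP values. NOTCH3 was higher in SMMCs than in SCs in 10 of 10 donors, by 2.40 on the log2(CPM + 1) scale (exact sign-flip permutation test, 2-sided, p = 0.00195, the smallest that 10 donors allow, adjusted over the 9 genes 0.0176, and 0.0562 for the 6 donors with at least 30 cells of both types), and higher in SCs than in FAPs in 10 of 10 donors, by 2.79 (exact p = 0.00195).

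At least 1 NOTCH3 UMI was seen in 59.7% of SMMCs and 1.46% of VECs, which had like median depths of 2792 and 2778.5 UMIs per cell, and in 51.0% and 0.602% after each cell was thinned to 2000 UMIs. In SCs the share was 21.2% (13.3% thinned). Markers of SMMCs were also read in SCs, where the sum of the 6 SMMC markers ran from 75.2 to 646 CPM, against 7270 to 25231 in SMMCs, with CNN1 at 0 and PDGFRB at most at 8.25. Per 100 UMIs of RGS5, a mural cell marker, there were 31.2 NOTCH3 UMIs in SMMCs and 521 in SCs. The part of SMMC transcripts in the SC level of NOTCH3 was not tested.

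NOTCH1 was at 80.3 ± 32.8 CPM in LECs (n = 4, from 20 UMIs in all), 33.9 ± 8.05 in VECs (18.7, 35.1 and 43.7) and 20.0 ± 12.8 in SCs (3.1, 17.6 and 41.3). It stood at 17.0 in macrophages, 13.1 in lymphocytes, 12.7 in SMMCs and 1.39 in FAPs, the last from 9 UMIs. LECs were above VECs in 4 of 4 donors, where the exact test cannot go below p = 0.125, and VECs above SCs in 9 of 10 (exact p = 0.0137).

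NOTCH2 followed another order. It was at 37.9 ± 8.83 CPM in FAPs (27.1, 36.4 and 57.5), 35.5 ± 15.4 in macrophages and 15.9 ± 7.72 in SCs (6.11, 14.7 and 33.0), whereas VECs held 4 UMIs in all and LECs 0 of 442404 UMIs, which at a limit of 3 UMIs allows up to 6.78 CPM by counting error alone. FAPs and macrophages could not be ordered, with FAPs higher in 5 of 10 donors (exact p = 0.395). The lowest FAP value lay below the highest SC value.

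The ligands showed a vascular distribution. JAG1, which in vessels signals between endothelium and smooth muscle, was at 300.1 ± 93.8 CPM in SMMCs (172.5, 308.6 and 422.5), 180.7 ± 49.7 in VECs (121.9, 164.7 and 281.5), 109.4 ± 49.4 in SCs and 88.3 ± 29.4 in FAPs. SMMCs were above VECs in 9 of 10 donors (exact p = 0.00391, adjusted 0.0176) and VECs above SCs in 9 of 10 (exact p = 0.00977), while SCs and FAPs could not be ordered (SCs higher in 7 of 10, exact p = 0.158). LECs, lymphocytes and macrophages were at 36.6, 19.2 and 11.9 CPM.

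DLL4, the ligand of arterial and sprouting endothelium, was at 125.2 ± 56.9 CPM in VECs (41.5, 131.7 and 223.3) and 31.7 ± 12.8 in LECs (n = 4, from 8 UMIs), with SMMCs at 16.1 and SCs, lymphocytes, FAPs and macrophages under 5. Pooled over all 81 LECs, those of donors with under 10 included, the level was 56.5 CPM from 25 UMIs. VECs were above LECs in 4 of 4 donors (exact p = 0.125, the smallest possible). DLL1, a ligand with known roles in muscle progenitors and endothelium, was at 109.9 ± 31.7 CPM in VECs (56.6, 105.7 and 162.9), 47.2 ± 67.2 in LECs and 31.0 ± 17.3 in SCs (0, 34.7 and 55.0), and at 2.37 to 4.52 in the others. The LEC mean rests on 8 UMIs of donor 4 and 3 of donor 7, with 0 in donors 8 and 10. Pooled over all 81 LECs DLL1 was at 31.6 CPM from 14 UMIs, beside 34.2 in the pooled SCs. Of these 7 types, SCs were the only type outside the endothelium with a mean DLL1 level above 5 CPM in Muscle.

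Of the targets, HES1, a repressor that many signals besides Notch can induce, was broadly present, and HEYL and HEY1 were narrower. HES1 was at 597.2 ± 210.7 CPM in SCs (297.8, 561.1 and 890.5), 580.4 ± 112.0 in LECs, 487.6 ± 128.9 in SMMCs, 441.6 ± 116.9 in VECs and 248.8 ± 77.1 in FAPs, and at 110.2 and 40.4 in macrophages and lymphocytes. SCs were above LECs in 1 of 4 donors (exact p = 0.75) and SMMCs above VECs in 6 of 10 (exact p = 0.424), and LECs were above SMMCs in 4 of 4, where the exact test cannot go below p = 0.125. VECs were above FAPs in 9 of 10 donors (exact p = 0.00586). HES1 UMIs were seen in 60.0% of SCs and 7.98% of lymphocytes.

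HEYL, a target known in vascular smooth muscle and quiescent SCs, was at 196.9 ± 56.7 CPM in SCs (133.1, 195.4 and 319.4) and 191.9 ± 56.9 in SMMCs (91.3, 191.0 and 294.8). These types could not be told apart (SCs higher in 6 of 10 donors, exact p = 0.748). In a single random draw of every sum down to the smallest, 42591 UMIs, SCs were higher in 8 of 10. The means were then 225.4 and 155.0 CPM (0.49 on the log2(CPM + 1) scale, exact adjusted p = 0.0352). That p leaves out the error of the draw, so it does not order the types. SMMCs were above FAPs, at 61.6 ± 25.7, in 10 of 10 (exact p = 0.00195). Per 100 RGS5 UMIs there were 13.1 HEYL UMIs in SMMCs and 1461 in SCs. HEY1, a target best known in endothelium, was at 63.9 ± 15.6 CPM in VECs, 35.8 ± 18.7 in SMMCs and 10.2 in FAPs and in SCs, with VECs above SMMCs in 8 of 10 donors by 1.23 on the log2(CPM + 1) scale (exact p = 0.00781, adjusted 0.0234). This difference did not hold with at least 30 cells (0.62, exact adjusted p = 0.0938) or with sums thinned to the smallest (0.33, exact adjusted p = 0.828).

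**Figure D1:**
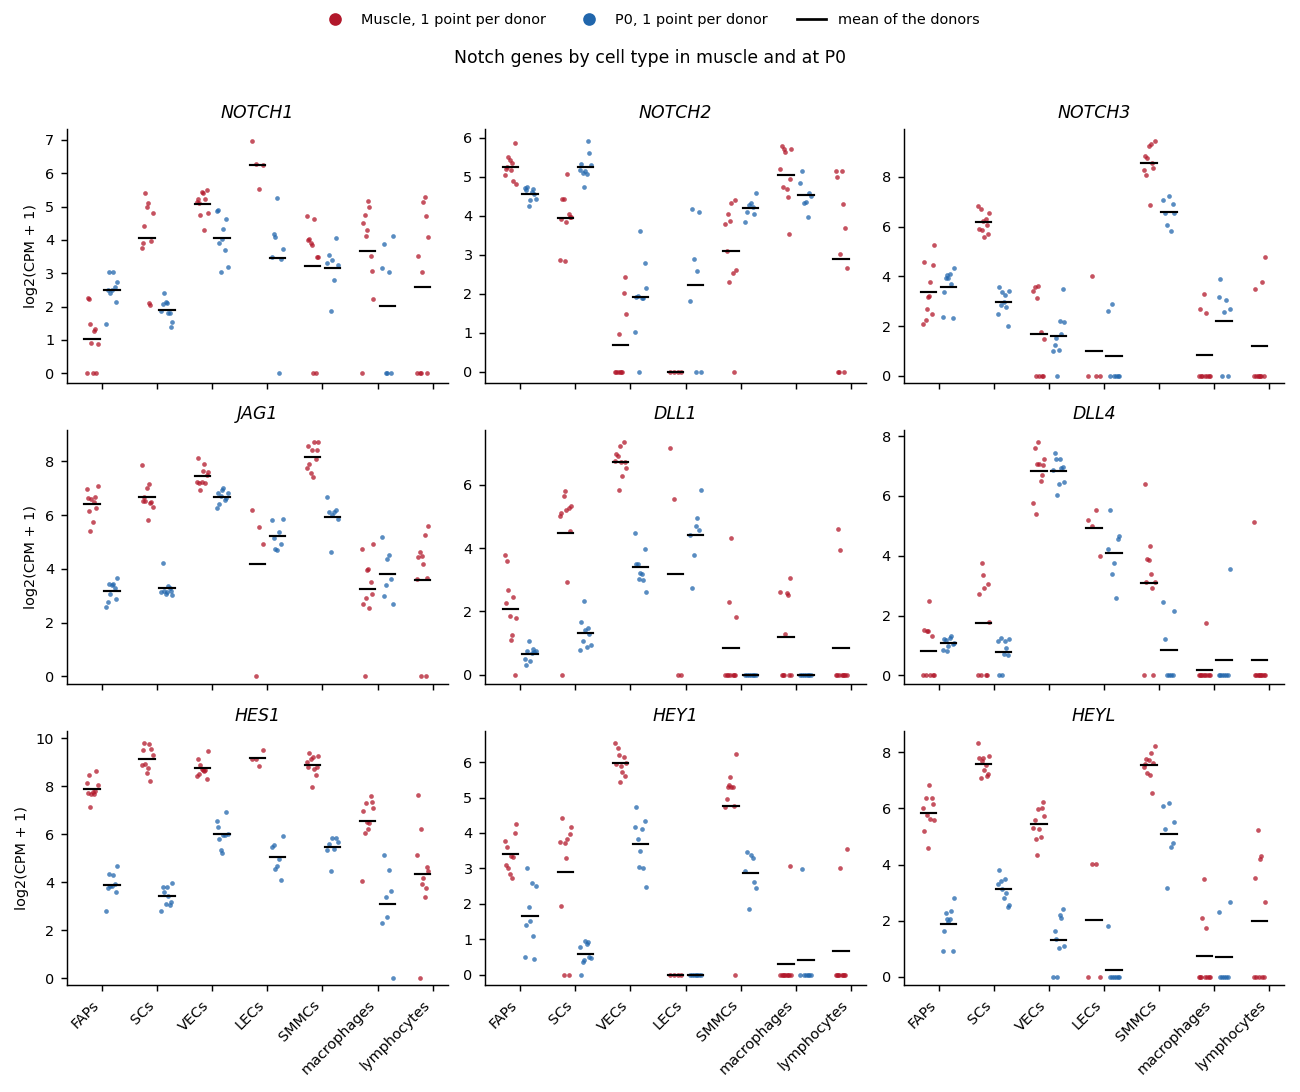
Levels of the 9 Notch genes by cell type in Muscle and at P0, as log2(CPM + 1), with a point per donor and a black bar at the mean of these log values. NOTCH3 was highest in SMMCs at both times (422.6 CPM in Muscle, 101.4 at P0), DLL4 in VECs (125.2 and 118.7), and HES1 lay lower at P0 in every type shown at both times.

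The rare types could only be pooled, so their levels carry an exact Poisson interval that covers counting error alone. In the 51 neutrophils HES1 was at 526 CPM (95% interval 393 to 690, from 52 UMIs), NOTCH2 at 121 (62.8 to 212) and NOTCH1 at 81.0 (35.0 to 160). The 23 tenocytes had NOTCH2 at 77.5 CPM (38.7 to 139), JAG1 at 56.4 (24.3 to 111) and 0 NOTCH3 UMIs, which at the same limit of 3 UMIs allows up to 21.1 CPM. The 45 myocytes had HES1 at 205 CPM (142 to 286) and HEYL at 42.1 (16.9 to 86.8).

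The next comparison asked how the genes differed between cells from fresh muscle and the same types after 72 h of culture. HES1 was lower at P0 in all 6 types compared, JAG1 and HEYL fell by 2.20 to 4.76 on the log2 scale in FAPs, SCs and SMMCs, and NOTCH3 fell in SCs and SMMCs. NOTCH2 rose in SCs, and no difference in DLL4 was called in VECs. These changes stood against a broad shift: 43.4% of the 9208 genes tested in FAPs were called, 34.3% in SCs, 35.1% in VECs, 36.4% in SMMCs, 29.6% in LECs and 34.6% in macrophages, and those called lower made up 22.5%, 18.5%, 19.6%, 21.3%, 14.8% and 20.4%. The share called higher was 20.9% in FAPs, 15.8% in SCs and 14.3% to 15.6% in the other types.

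Among the receptors, NOTCH3 in SCs ran from 46.6 to 113 CPM in Muscle and from 3.05 to 10.9 (median 6.85) at P0, with no overlap and a log2 fold change of -3.41 ± 0.22 (SE; edgeR adjusted p = 5.65e-13). In SMMCs it went from 422.6 to 101.4 CPM (56.2, 92.7 and 150.5 at P0), lower in 7 of 7 donors with overlapping groups (-2.11 ± 0.29, edgeR adjusted p = 3.3e-06). FAPs, which were low at the start, showed no called difference (12.6 and 12.1 CPM, log2 fold change -0.07 ± 0.44, adjusted p = 0.887). NOTCH3 was not tested in VECs, LECs and macrophages.

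NOTCH2 moved the other way in SCs. It was at 15.9 CPM in Muscle (6.11 to 33.0) and 38.5 at P0 (25.6, 35.1 and 59.9), higher in 8 of 9 donors though the groups overlapped (1.24 ± 0.26, edgeR adjusted p = 0.00012). In FAPs it was lower at P0 in 9 of 9 donors, at 22.7 against 37.9 CPM, with no overlap, but short of the fold required (-0.62 ± 0.11, adjusted p = 2e-05). NOTCH1 in VECs was at 33.9 and 17.3 CPM (-0.94 ± 0.23, adjusted p = 0.000586), also short of that fold, and lower in 8 of 9 donors. In SCs NOTCH1 was not tested, and its level was 20.0 CPM in Muscle and 2.82 at P0, lower in 9 of 9 donors.

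Of the ligands, JAG1 in SCs was at 55.5 to 231.7 CPM in Muscle and 7.12 to 17.4 at P0 (-3.67 ± 0.20, edgeR adjusted p = 4.15e-14), and in FAPs at 41.0 to 134.6 and 4.99 to 11.7 (-3.32 ± 0.20, adjusted p = 6.84e-13). In SMMCs it went from 300.1 to 65.1 CPM (-2.23 ± 0.22, adjusted p = 7.63e-09), and in none of these 3 types did the groups overlap. VECs, at 180.7 and 103.9 CPM, showed a smaller difference that was not called (-0.83 ± 0.14, adjusted p = 3.71e-06), lower in 9 of 9 donors.

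The delta-like ligands differed from each other within VECs. DLL1 ran from 56.6 to 162.9 CPM in Muscle and from 5.19 to 21.1 at P0, lower in 9 of 9 donors with no overlap (-3.44 ± 0.22, edgeR adjusted p = 7.76e-14). DLL4 was at 125.2 and 118.7 CPM, higher in 4 donors and lower in 5 (-0.13 ± 0.23, adjusted p = 0.629). DLL4 UMIs were seen in 26.6% of VECs in Muscle and 67.3% at P0 (18% and 55.4% after thinning to 2000 and 8000 UMIs per cell), against 2.26% of FAPs at P0, whose median depth was 24188 UMIs to 12856 in VECs. The thinned depths differ between Muscle and P0, so these shares do not compare the times at equal depth. DLL1 in SCs was not tested, and its level was 31.0 CPM in Muscle and 1.63 at P0, lower in 9 of 9 donors.

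HES1 in SCs ran from 297.8 to 890.5 CPM in Muscle and from 5.97 to 14.6 at P0 (-5.93 ± 0.24, edgeR adjusted p = 9.11e-15). The log2 fold change was -3.91 ± 0.22 in FAPs, -2.75 ± 0.18 in VECs, -3.41 ± 0.19 in SMMCs and -4.14 ± 0.25 in LECs, all with adjusted p at or under 4.26e-12 and no overlap between groups. Macrophages were at 110.2 and 12.3 CPM (-3.31 ± 0.51, adjusted p = 7.12e-06) with overlap, and under the block by donor the low counts kept the gene out of their test. In LECs and in macrophages the other 8 genes were not tested, and in SMMCs NOTCH1, NOTCH2, DLL1, DLL4 and HEY1 were not.

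HEYL fell in SCs from 133.1 to 319.4 CPM in Muscle to 4.68 to 13 at P0 (-4.76 ± 0.18, edgeR adjusted p = 4.08e-17). The fall was -4.11 ± 0.33 in FAPs, -4.39 ± 0.31 in VECs and -2.20 ± 0.27 in SMMCs, where 39.9 ± 23.5 CPM remained at P0. HEY1 in VECs went from 63.9 to 13.4 CPM with no overlap (-2.29 ± 0.22, adjusted p = 5.09e-10), and in FAPs from 10.2 to 2.77 (-1.71 ± 0.56, adjusted p = 0.0086).

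A list of 17 genes that tissue digestion is known to induce, such as FOS and JUN, moved in the same comparison. Its summed level ran from 6063 to 39857 CPM over the donors of these 6 types in Muscle and from 1219 to 2085 at P0, and 11 to 13 of the 13 or 14 members tested in each type were called lower and 0 higher. In Muscle the sum was 14738 to 28283 CPM in SCs and 6063 to 13424 in FAPs. Its part in the change of HES1 and the other Notch genes was not tested.

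**Figure D2:**
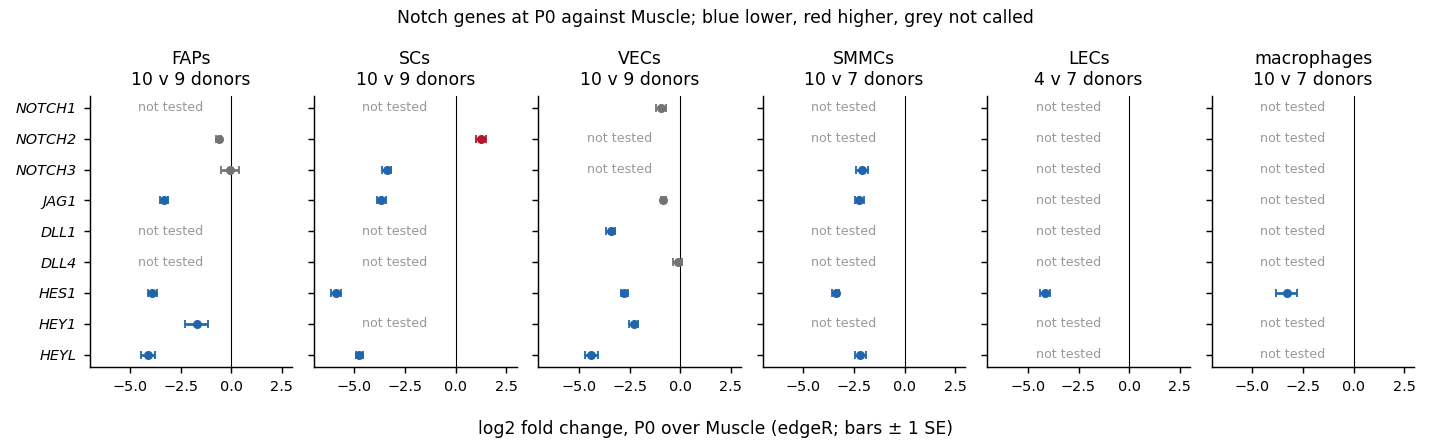
Log2 fold changes of the Notch genes at P0 against Muscle in 6 cell types, from edgeR, with bars of 1 standard error, blue points for genes called lower, red for higher and grey for not called. HES1 lay between -5.93 (SCs) and -2.75 (VECs), while DLL4 in VECs lay at -0.13 and NOTCH2 in SCs at 1.24.

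Whether the change differed between types was tested as an interaction. Between SCs and FAPs, where 20% of all genes tested were called, the change of NOTCH2 was higher in SCs by 2.08 ± 0.26 on the log2 scale (edgeR adjusted p = 1.36e-08) and that of NOTCH3 lower by -3.12 ± 0.47 (adjusted p = 1.41e-06). The changes of HES1 (-1.79 ± 0.31, adjusted p = 1.11e-05) and DLL1 (-1.96 ± 0.55, adjusted p = 0.00407) were also lower in SCs. HEY1 (-1.95, adjusted p = 0.051) was called by DESeq2 (-2.05) and with total UMIs as library size (-2.02). Of the early response genes, 6 of 15 tested were lower and 1 higher in this interaction, with a median of -0.86, and their part was not tested. For JAG1 (-0.13, adjusted p = 0.758) and HEYL (-0.45, adjusted p = 0.371) no difference between the types was called.

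VECs were compared with FAPs and with SCs in the same way. The change of JAG1 in VECs was higher than in FAPs by 2.55 ± 0.24 (edgeR adjusted p = 1.27e-11; 25.6% of genes called) and than in SCs by 2.81 ± 0.24 (adjusted p = 8.26e-13; 21.1% called), and that of HES1 by 1.22 ± 0.28 and 3.14 ± 0.29. DLL4 differed between VECs and SCs by 2.18 ± 0.74 (adjusted p = 0.0174), a value that rests on low counts in SCs and lost its call without the filter on low counts (1.92, adjusted p = 0.072) and in thinned sums (1.81, adjusted p = 0.13). Differences in NOTCH2 between VECs and FAPs (2.48) and in NOTCH1 (-2.98) rest on 4 UMIs of NOTCH2 in VECs and 9 of NOTCH1 in FAPs in Muscle. Between VECs and SCs, NOTCH3 (2.39), NOTCH1 (1.97), HEY1 (1.46) and DLL1 (1.03) were also called, and HES1 between VECs and FAPs lost its call in thinned sums (0.97). The DLL1 call was lost under DESeq2 (0.94), RLE scaling (0.94), no filter on low counts (0.78) and donor as a block (0.995), and that of HEY1 without the filter (1.21, edgeR adjusted p = 0.0544). Of the early response genes, 10 of 16 tested were lower and 1 higher in VECs against FAPs, and 5 and 3 of 15 against SCs.

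At P0 the order of types was read again. NOTCH3 stayed highest in SMMCs (101.4 ± 34.6 CPM, FAPs next at 12.1), HEYL was highest in SMMCs (39.9, SCs next at 8.01), and JAG1 (103.9 ± 17.5), DLL4 (118.7 ± 35.1) and HES1 (67.5 ± 26.5) were highest in VECs. Each top type was above the next in 7 of 7 donors (exact sign-flip permutation test, p = 0.0156, the smallest that 7 donors allow, adjusted 0.0281). In a single random draw of every sum down to the smallest, 80694 UMIs, few UMIs of each gene were left and none of these passed. HES1 was then higher in VECs than in SMMCs in 3 of 7 donors and JAG1 in 5 of 7. HEYL was higher in SMMCs than in SCs in 6 of 7, with NOTCH3 and DLL4 still at 7 of 7 (exact adjusted p = 0.0703). NOTCH2 was highest in SCs, above macrophages in 6 of 7 donors (38.5 and 22.8 CPM, exact p = 0.0312, adjusted 0.0469, and 0.0879 over all neighboring types). This call was also lost in thinned sums (6 of 7 donors, exact adjusted p = 0.141). The exact test between the top type and the next did not pass adjustment for 3 genes. They were HEY1 (VECs 13.4, SMMCs 6.76, 6 of 7 donors, adjusted p = 0.0603), DLL1 (LECs 24.7, VECs 10.3, 5 of 7, 0.105) and NOTCH1 (VECs 17.3, LECs 14.6, 5 of 7, 0.234).

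The passages were then compared within FAPs and SCs, without a block by donor. The donors were those present at both times whose passaged cultures were unsorted or sorted as the type compared. SCs of FAP-sorted cultures and FAPs of SC-sorted cultures were left out. Between P0 and P2 (donors 1, 2, 5, 6, 9 and 10), 8.73% of the 9913 genes tested in SCs were called (5.49% higher, 3.24% lower), and NOTCH3, HES1 and DLL1 were among them. NOTCH3 in SCs ran from 3.05 to 10.9 CPM at P0 (median 8.15) and from 11.2 to 36.6 at P2 (median 19.1), with every P2 value of these 6 donors above every P0 value (1.70 ± 0.33, edgeR adjusted p = 0.00231). HES1 rose from 5.97, 10.5 and 14.6 CPM (lowest, median and highest) to 11.7, 24.4 and 37.3, higher in 6 of 6 donors with overlap (1.27 ± 0.30, adjusted p = 0.00645). DLL1 rose from 1.83 to 5.93 CPM on average, in 5 of 6 donors (1.93 ± 0.59, adjusted p = 0.0238). In the SCs of FAP-sorted cultures, which were left out, P2 levels were 5.88 to 19.6 CPM for NOTCH3, 38.2 to 46.0 for HES1 and 0 to 3.35 for DLL1.

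The other receptors, ligands and targets were not called in SCs at P2. NOTCH2 was higher in 6 of 6 donors (0.65, edgeR adjusted p = 0.069), NOTCH1 had a log2 fold change of 0.78 (adjusted p = 0.11), JAG1 of -0.73 (adjusted p = 0.0826) and HEYL of 0.09 (adjusted p = 0.92). HEY1 and DLL4 were not tested, with 21 DLL4 UMIs at P0 and 0 at P2. HES1 at P2 (30.7 ± 12.4 CPM over 9 donors) was still far from its Muscle level of 597.2 CPM, a comparison across separate libraries.

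The P2 values of SCs differed by culture, which the design ties to the coating and to the donors, 3 in each. DLL1 was at 6.08 to 14 CPM in SC-sorted cultures, 0.904 to 2.87 in unsorted and 0 to 3.35 in the few SCs of FAP-sorted cultures. HEYL showed the same order, with 4.19 to 17.6, 1.67 to 3.23 and 0 to 2.23 CPM, and NOTCH3 was at 21.0 to 36.6, 11.2 to 17.2 and 5.88 to 19.6. NOTCH2 was lower in SC-sorted cultures (32.2 to 55.8 CPM) than in unsorted (62.4 to 94.1) or FAP-sorted ones (66.2 to 73.5), with no overlap. HES1 had another order, with 25.9 to 37.3 CPM in SC-sorted, 11.7 to 23.0 in unsorted and 38.2 to 46.0 in FAP-sorted cultures, also without overlap. No test was fitted to these groups of 3 donors, for which an exact permutation test of 1 group against another cannot go below 0.1.

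Between P2 and P5 no Notch gene was called in SCs, where 0.195% of 10781 genes were (0.111% higher, 0.0835% lower). Of the 8 tested with edgeR, 1 had an unadjusted p under 0.05 (HEY1, log2 fold change 1.17, adjusted p = 0.25), and DESeq2 called 0 of them as well. DLL4 was not tested. At P8 only 4 donors had at least 10 SCs, and their NOTCH2 was at 77.4 ± 15.8 CPM and their HES1 at 45.8 ± 19.3.

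In FAPs the P0 to P2 step (donors 1, 2, 4, 7, 8 and 9, 23.3% of 11439 genes called, 13.6% higher and 9.79% lower) brought a fall of DLL4 and HEYL. HEYL ran from 0.884 to 4.15 CPM at P0 and from 0.0976 to 0.349 at P2, lower in 6 of 6 donors without overlap (-3.28 ± 0.45, edgeR adjusted p = 2.06e-05). DLL4 went from 0.804, 1.3 and 1.49 CPM to 0, 0.0190 and 0.0557, from 98 UMIs to 3 (pooled ratio 61.9, 95% counting interval 20.6 to 305, adjusted p = 1.27e-07).

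Endothelial markers of FAPs did not move together in the same step. PECAM1 averaged 5.65 CPM over the FAPs of the 9 P0 donors and 0.00959 over the 8 P2 donors, and CDH5 5.39 and 0.0624, while TEK averaged 1.09 and 0.426, VWF 1.96 and 7.09 and FLT1 0.994 and 7.12. The sum of the 5 VEC markers in FAPs thus ran from 11.1 to 23.3 CPM at P0 and from 8.00 to 20.8 at P2, against 1600 to 2504 in VECs at P0. Per 100 PECAM1 UMIs at P0 there were 12.6 DLL4 UMIs in VECs and 20.7 in FAPs, and the part of VEC transcripts in the DLL4 level of FAPs was not tested.

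JAG1 and NOTCH2 in FAPs were higher at P2 in 6 of 6 donors, short of the fold required. JAG1 went from 4.99 to 9.79 CPM (lowest and highest at P0) to 9.92 to 18.3, without overlap (0.96 ± 0.21, edgeR adjusted p = 0.00102), and NOTCH2 had a log2 fold change of 0.40 ± 0.06 (adjusted p = 4.82e-05). NOTCH1, NOTCH3, DLL1, HES1 and HEY1 had log2 fold changes of -0.43 to 0.50 and adjusted p of 0.125 to 0.814.

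From P2 to P5, with 3.34% of genes called (0.946% higher, 2.4% lower), no Notch gene was called in FAPs by edgeR or DESeq2. Of the 7 tested, NOTCH3 (0.60 ± 0.17, edgeR adjusted p = 0.0318) and JAG1 (0.54, adjusted p = 0.0605) had an unadjusted p under 0.05. From P5 to P8, with 2.02% called (1.53% higher, 0.494% lower), NOTCH3 fell from 12.0, 17.1 and 20.5 CPM to 6.03, 8.94 and 13.4, lower in 6 of 6 donors with overlap (-1.03 ± 0.19, adjusted p = 0.00735). That call lay at the edge of the fold required and was lost with total UMIs as library size (-0.89) and in the FAP-sorted cultures alone (-0.52, adjusted p = 0.168). JAG1 was lower in 6 of 6 donors as well (-0.56 ± 0.15, adjusted p = 0.0273), and DLL1, DLL4 and HEYL were not tested.

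**Figure D3:**
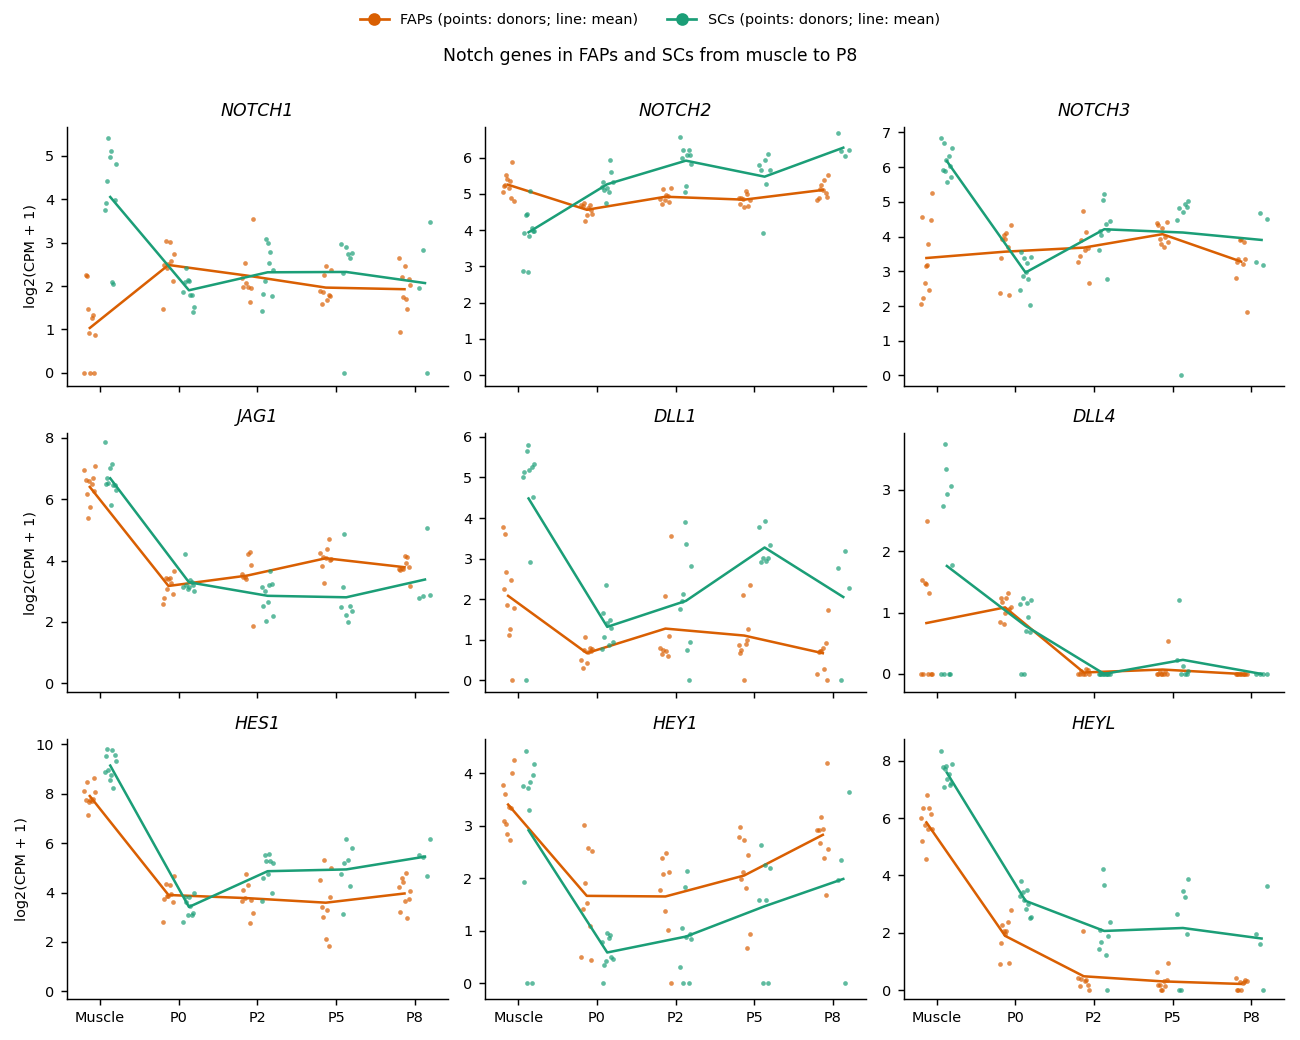
Levels of each Notch gene in FAPs (orange) and SCs (green) from Muscle to P8, as log2(CPM + 1), with a point per donor and a line through the means. HES1, HEYL and JAG1 drop between Muscle and P0 in both types, and NOTCH3 in SCs falls from a mean of 74.0 CPM to 7.21 and lies at 19.6 at P2.

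SCs and FAPs, the cells of most interest for cultured muscle and fat, were compared directly at 3 times. In Muscle (19.9% of 4450 genes called, 6.54% higher in SCs and 13.4% lower) SCs had more NOTCH3 (2.29 ± 0.32, edgeR adjusted p = 1.22e-06), HES1 (1.22 ± 0.19, adjusted p = 4.88e-06) and HEYL (1.67 ± 0.21, adjusted p = 1.86e-07), each in 10 of 10 donors, and NOTCH3 and HEYL without overlap. In the same comparison 9 of 14 early response genes tested were called higher in SCs and 1 lower, with a median log2 fold change of 1.24, and their part in the HES1 difference was not tested. No difference in JAG1 was called (0.17, adjusted p = 0.548). The rest were not tested: SCs had the higher NOTCH1 level in 10 of 10 donors and the higher DLL1 in 9 of 10, and the lower NOTCH2 level in 10 of 10.

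At P0 (10.7% called, 5.98% higher in SCs and 4.69% lower) only HEYL was called, higher in SCs in 8 of 9 donors (8.01 and 3.02 CPM, 1.28 ± 0.29, edgeR adjusted p = 0.0013). NOTCH2 was now higher in SCs in 9 of 9 donors (0.77 ± 0.12, adjusted p = 1.37e-05), and NOTCH1 (-0.83), NOTCH3 (-0.82) and HES1 (-0.57) lower with adjusted p of 0.00571 to 0.0424, none past the fold required. DLL1 and HEY1 were not tested.

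At P2 (8 donors with both types, 12% of 10877 genes called, 5.69% higher in SCs and 6.27% lower) 6 Notch genes were called, all with overlapping groups. Unlike in the passage comparisons, cells of cultures sorted as the other type were kept here. These were the SCs of FAP-sorted donors 4, 7 and 8 (95, 50 and 18 cells) and the FAPs of SC-sorted donors 5 and 10 (19 and 12 cells). SCs had more NOTCH2 (25.5, 28.7 and 34.7 CPM in FAPs and 32.2, 66.3 and 94.1 in SCs, 1.11 ± 0.16, edgeR adjusted p = 6.97e-05), HEYL (4.26 ± 0.61, adjusted p = 5.04e-05), DLL1 (2.49 ± 0.56, adjusted p = 0.00291) and HES1 (1.12 ± 0.30, adjusted p = 0.0107). They had less JAG1 (-1.17 ± 0.30, adjusted p = 0.00672) and HEY1 (-1.34 ± 0.48, adjusted p = 0.0457). With donor as a block, HES1 (0.93) and JAG1 (-0.80) no longer passed the fold, nor with at least 30 cells (0.84, adjusted p = 0.112, and -0.84). DLL1 was not called by DESeq2 (1.64, adjusted p = 0.0571), and HEY1 not with total UMIs as library size (-1.23, adjusted p = 0.058).

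Each type also carried markers of the other at P2. The sum of the 5 FAP markers ran from 2200 to 8448 CPM in SCs and from 4869 to 28072 in FAPs, and that of the 6 SC markers from 225 to 878 in SCs and 10.7 to 58.7 in FAPs. In FAPs CHRDL2 and CALCR were at 0, but CHRDL2 was at 0 in SCs as well, and FAPs held 437 MYF5 UMIs. Per 100 MYF5 UMIs there were 6.61 HEYL UMIs in SCs and 8.24 in FAPs, and 5.89 and 25.6 DLL1 UMIs. Per 100 PAX7 UMIs, of which FAPs held only 3, there were 226 HEYL UMIs in SCs and 1200 in FAPs, and 201 and 3733 DLL1 UMIs. The part of these markers' cells in the differences was not tested.

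Within SCs, the cells that held MYOG, the transcription factor that marks the onset of myogenic differentiation, were set against those without it. MYOG is not among the 9 genes, and cells with at least 2 MYOG UMIs and cells with 0 were summed per donor. The main fit took no block by donor, although the deviations of a donor's samples correlated (median r 0.640 at P2 and 0.388 at P5). Calls that changed with the block are given beside it. At P5 (donors 1, 5, 6, 9 and 10, 352 MYOG-positive and 2944 MYOG-negative cells, 15.4% of 9051 genes called, 6.73% higher and 8.66% lower) the MYOG-positive cells had more NOTCH1 and DLL1 and less NOTCH2 and NOTCH3, with no overlap for any of these genes.

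DLL1 at P5 was at 2.47, 8.68, 5.25, 4.08 and 6.72 CPM in the MYOG-negative cells of the 5 donors and at 69.0, 47.8, 24.1, 25.5 and 22.5 in their MYOG-positive cells (2.68 ± 0.38, edgeR adjusted p = 0.000317). NOTCH1 was at 3.09, 5.52, 4.66, 4.08 and 4.42 CPM and at 27.8, 13.2, 18.3, 9.57 and 15.4 (1.94 ± 0.24, adjusted p = 0.000115). The positive cells thus lay above the negative cells of every donor for this ligand and this receptor.

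NOTCH2 at P5 was at 62.6, 65.8, 39.4, 77.6 and 54.8 CPM without MYOG and 8.90, 19.9, 20.7, 6.38 and 14.8 with it (-1.95 ± 0.26, edgeR adjusted p = 0.000149). NOTCH3 was at 24.5, 28.0, 31.7, 31.5 and 34.9 CPM and at 4.45, 7.35, 13, 6.38 and 9.85 (-1.75 ± 0.21, adjusted p = 9.7e-05). HES1 was lower in 5 of 5 donors (29.2, 75.8, 38.9, 15.7 and 59.9 CPM without MYOG, 7.79, 41.9, 19.3, 9.57 and 22.8 with it), which missed the threshold (-1.04, adjusted p = 0.0988) and passed it with donor as a block (-1.19, adjusted p = 0.000154). HEYL was higher in 5 of 5 donors but not called (0.75, adjusted p = 0.121), and JAG1, with 259 UMIs without MYOG and 6 with it, HEY1 and DLL4 were not tested.

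At P2 (donors 5, 6 and 10, 308 and 2720 cells, 6.63% called, 4.43% higher and 2.19% lower) the same 4 genes were called in the same directions. DLL1 was at 9.48, 7.08 and 5.66 CPM without MYOG and 35.8, 32.9 and 17.5 with it (2.04 ± 0.29, edgeR adjusted p = 0.00442), and NOTCH1 at 5.53, 5.46 and 3.89 and at 16.7, 21.6 and 9.43 (1.76 ± 0.29, adjusted p = 0.00725). NOTCH2 had a log2 fold change of -1.51 ± 0.21 and NOTCH3 of -1.36 ± 0.29 (adjusted p = 0.00374 and 0.022), again with no overlap between the groups of 3 donors. The directions held in each fit, but 1 of the 4 calls was left without donor 5 (DLL1) and 1 without donor 6 (NOTCH2), and 0 when a single MYOG UMI marked a positive cell, with log2 fold changes of 1.47 for DLL1, 1.28 for NOTCH1, -0.40 for NOTCH2 and -0.46 for NOTCH3 (edgeR adjusted p of 0.139 to 0.744). Thinned to the smallest sum, DLL1 was at 1.01 and NOTCH3 at -1.36 (adjusted p = 0.117 and 0.0706).

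JAG1 and HEYL at P2 were called only with donor as a block (JAG1 -1.5, edgeR adjusted p = 0.0114, against 0.0534 without it, and HEYL 1.01, adjusted p = 0.0258, against 0.283). HES1 (-0.48, adjusted p = 0.219) and HEY1 (0.52, adjusted p = 0.705) were not called. DLL4 had 0 UMIs and was not tested.

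The same split in Muscle, added after the data were seen, rested on 54 MYOG-positive and 272 MYOG-negative SCs of donors 2, 5, 6 and 10 (19% of 2769 genes called, 7.22% higher and 11.8% lower). HES1 was at 975, 467, 554 and 832 CPM in the MYOG-negative cells and 47.6, 49.3, 122 and 89.9 in the MYOG-positive cells (-3.18 ± 0.34, edgeR adjusted p = 2.71e-06). NOTCH3 counted 102 UMIs without MYOG and 2 with it (ratio 14.8, 95% counting interval 3.98 to 124, adjusted p = 0.000659), and JAG1 128 and 3 (ratio 12.4, 4.13 to 60.7, adjusted p = 0.00012). These 3 genes showed no overlap between the groups.

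HEYL in Muscle was at 111, 213, 163 and 153 CPM in the MYOG-positive cells against 267, 228, 163 and 264 (-0.62, edgeR adjusted p = 0.103). DLL1 was not tested, and its level was higher with MYOG in 4 of 4 donors without overlap, at 31.7, 197, 112 and 98.9 CPM against 22.8, 15.4, 12.1 and 16.7. NOTCH1 was likewise not tested, and lay at 0, 65.7, 61.2 and 62.9 CPM against 19.0, 23.2, 27.2 and 13.4. NOTCH2 and HEY1 were not tested, nor was DLL4, with 9 UMIs without MYOG and 0 with it.

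The early response genes moved with this split in Muscle too, where 8 of 13 tested were lower in the MYOG-positive cells. Their part in the HES1 difference was not tested. The MYOG-positive cells compared there held 333195 UMIs in 54 cells, and the MYOG-negative cells 1151032 in 272. At P0 only 5 SCs held 2 or more MYOG UMIs, too few for the comparison.

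**Figure D4:**
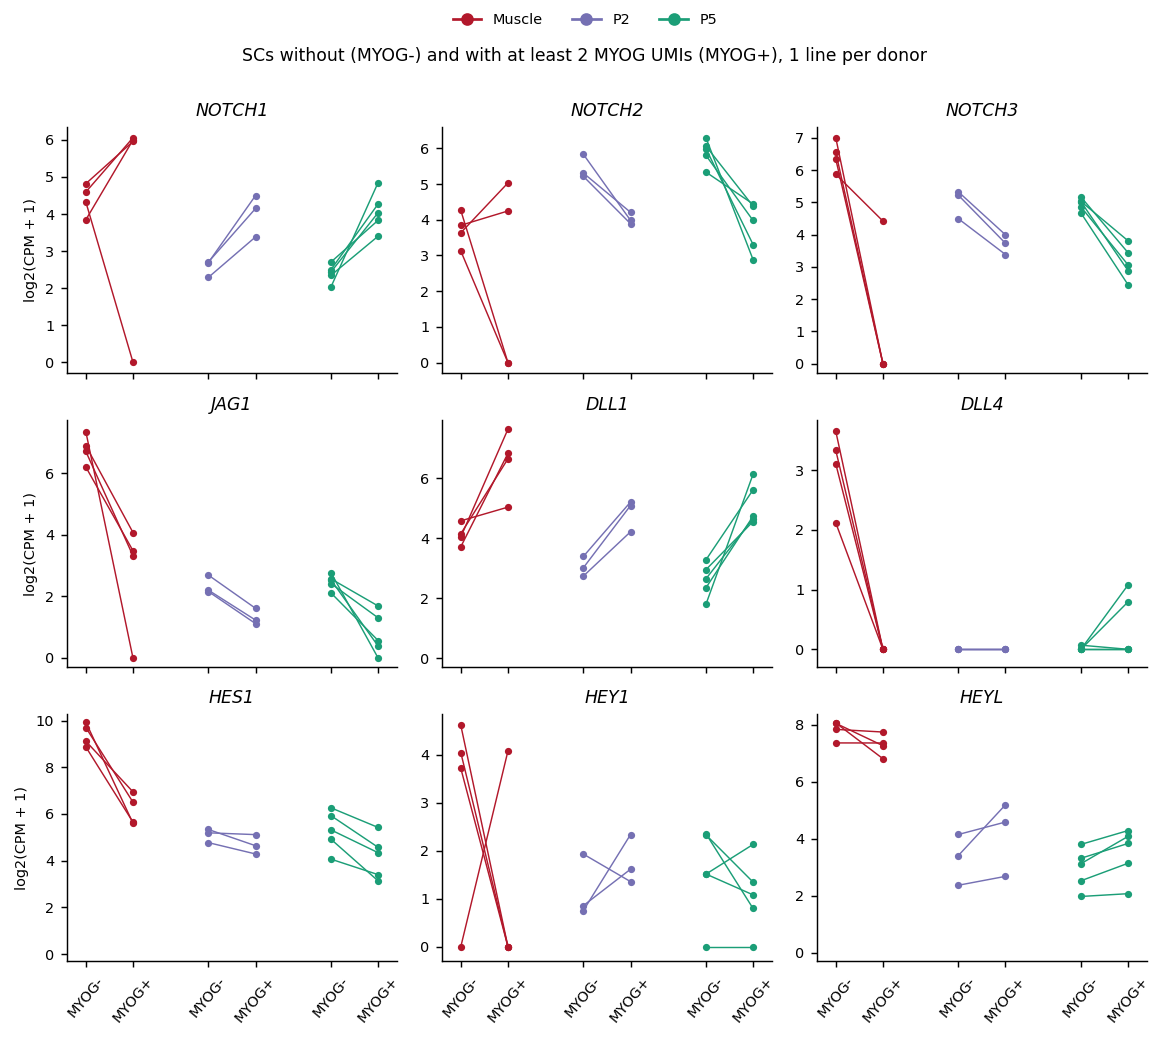
Levels of the Notch genes in MYOG-negative and MYOG-positive SCs of the same donors at Muscle, P2 and P5, as log2(CPM + 1), with a line joining the values of each donor. DLL1 lines rise in every donor at all 3 times and NOTCH3 lines fall in every donor, while HEYL in Muscle is near level or falls.

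The remaining 50 genes of a pathway list of 59 (processing enzymes, glycosyltransferases, coactivators, regulators and the other receptors and ligands) were counted in each comparison of 2 groups, interactions aside. From Muscle to P0, 0 were called higher in any of the 6 types, beside 20.9% of all genes tested in FAPs, 15.8% in SCs and 14.3% to 15.6% in the other types. Those called lower were 8 of 33 tested in FAPs (22.5% of all genes tested there were called lower), 4 of 15 in SCs (18.5%), 4 of 22 in VECs (19.6%), 1 of 9 in SMMCs (21.3%), 2 of 11 in LECs (14.8%) and 6 of 16 in macrophages (20.4%), which in FAPs, VECs and LECs is near the share of all genes. The median log2 fold change of those tested was -0.55 in FAPs, -0.64 in SCs and -0.38 in VECs, beside 0.03, -0.01 and -0.02 over all genes tested.

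By name, RBPJ, the DNA-binding partner of every Notch receptor, was called lower at P0 in FAPs (120 and 52.2 CPM, log2 fold change -1.12), SCs (153 and 80.5, -1.01), SMMCs (-1.61) and macrophages (-1.52). ADAM10, the protease that makes the first cut in the receptor, was lower in SCs (-1.76), VECs (-1.23) and LECs (-1.35). LFNG, a glycosyltransferase that modifies the receptors, was lower in FAPs (-2.91), VECs (-2.32) and macrophages (-2.45), and in VECs JAG2 went from 144 to 22.6 CPM (-2.67) and NOTCH4, the endothelial receptor, from 80.1 to 38.1 (-1.10). The others called lower were DLK1 in FAPs (-9.60) and SCs (-10.37), DTX1 in FAPs (-5.90) and LECs (-1.54), NUMBL (-1.93), DTX3 (-1.75), MIB2 (-1.54) and PSEN2 (-1.45) in FAPs, DTX4 in SCs (-1.14), and EOGT (-2.91), MFNG (-1.54), EP300 (-1.16) and PSENEN (-1.13) in macrophages.

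Between passages, 1 of 33 tested was called in SCs from P0 to P2 (DTX4, -1.40), against 8.73% of all genes, and 0 of 37 from P2 to P5, against 0.195%. In FAPs 6 of 37 rose from P0 to P2, near the 13.6% of all genes called higher, namely DTX3L (1.44), RFNG (1.34), MIB2 (1.31), NCSTN (1.18), LFNG (1.08) and PSENEN (1.03), and 2 fell, DLK2 (-2.16) and MFNG (1.78 to 0.00542 CPM), against 9.79% called lower. DTX4 was the single gene called in FAPs from P2 to P5 (-1.30), where 3.34% of all genes were called, and 0 of 34 were from P5 to P8, where 2.02% were. SCs had more DTX4 (2.65) and ADAM10 (1.54) and less DTX1 (0.528 against 67.5 CPM) than FAPs in Muscle, more DTX4 (1.94) and LFNG (1.87) at P0 and more LFNG (1.44) at P2.

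With the MYOG split, 4 of 38 tested were higher in MYOG-positive cells at P2, against 4.43% of all genes called higher. There JAG2, a ligand, was at 0.93 CPM without MYOG and 9.03 with it (3.32, edgeR adjusted p = 0.00118), beside DLK2 (3.41), NUMBL (1.39) and PSEN2 (1.26). At P5 JAG2 was at 1.60 and 19.0 CPM (3.54, adjusted p = 0.000192), PSEN2 (1.48), NUMBL (1.47) and RBPJ (1.29) were also higher, and DTX3L (-1.97), NUMB (-1.31) and ADAM17 (-1.08) lower, out of 30 tested, against 6.73% of all genes called higher and 8.66% lower. In Muscle 1 of 10 was called, DTX4 (-1.78), near the 11.8% of all genes called lower.

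Over the 19 groups of type and timepoint and 10606 genes, the genes whose mean log levels were most like each Notch gene were listed by Pearson's r, as a description, since the groups share libraries and donors. DLL4 was nearest to FAM110D (0.969), ADGRL4 (0.957) and SOX7 (0.956). NOTCH3 was nearest to PDE3A (0.926), SLC7A2 (0.922) and SMARCD3 (0.919), NOTCH2 to HTATIP2 (0.902), AXL (0.900) and KRCC1 (0.899), and VPS72 (0.888) and ARAP3 (0.871) were among the nearest to NOTCH1. JAG1 was nearest to RNF11 (0.909), ADAMTS9 (0.890) and ZCCHC10 (0.887), and DLL1 to HID1 (0.904), ZBTB33 (0.903) and ACE (0.894). The targets were nearest to DSTYK (0.949), CBX6 (0.949) and UBN2 (0.944) for HES1, to GASK1B (0.875), FAM118A (0.846) and HOXB2 (0.833) for HEY1, and to SH2B1 (0.930), REV1 (0.906) and PKIA (0.897) for HEYL.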

How the data were processed

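The authors aligned reads with Cell Ranger 6.0.1 to ARS-UCD1.2 (Ensembl 101) and deposited raw UMI counts per gene and barcode, which were used as deposited, with the donors (demuxlet) and cell types of the deposited cell tables. The deposited combined expression table is not raw counts and was not used, and barcodes outside the 36129 cells of the deposited tables were left out. All of these cells were demuxlet singlets; doublets of 2 cells from the same donor are not seen that way, and no doublet caller was run here. UMIs were summed per donor and type (at least 10 cells, 20977722 to 252316585 UMIs per library) and tested with edgeR 4.0.16 (TMM, filterByExpr, robust quasi-likelihood F test, R 4.3.3). Standard errors are the log2 fold change over the square root of F. Python 3.11.15, numpy 2.4.6, pandas 2.3.3 and scipy 1.17.1 gave the levels, exact tests and intervals (95%, counting error only, floor 3 UMIs). The scripts were tested on simulated data. The naming rule took all 9 genes, and of the 50 other pathway genes the called ones, at most 8 per comparison; the genes, lists and tests were chosen with earlier results of these data known. The same donor is the same animal, which pairs samples across groups (the deviations of a donor's samples correlated from -0.22 to 0.79), and the fit with donor as a block was an alternative. Other alternatives were DESeq2 1.42.0, RLE scaling, no filter on low counts, at least 30 cells, thinning to the smallest sum, sorted cultures alone, a MYOG minimum of 1 UMI, other pseudocounts (0.1 and 10), leaving out each donor and, added after seeing the data, total UMIs as library size. Replicates are donors. GEO's record of the P0 library also names sorted cells, whereas all 9 P0 donors were treated as unsorted here. Calf against adult was not analysed here, and a gene among the nearest to NOTCH1 is not reported here.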

Additional observations from a re-analysis of the deposited data

Results flagged for a closer look

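Donor samples that stood far from the rest of their group were seen in 5 of 87 groups of gene, type and timepoint, near the 1 in 20 that chance gives. NOTCH3 was at 0 CPM in the 10 SCs of donor 4 at P5 (0 of 141002 UMIs), where the other donors ran from 21.3 to 31.3. At so small a sum a count of 0 is imprecise. JAG1 was at 231.7 CPM in the Muscle SCs of donor 1 (37 UMIs), the others at 55.5 to 141.7, and at 32.2 CPM in the 12 SCs of donor 9 at P8 (4 UMIs), the others at 5.79 to 6.34. DLL4 was at 83.0 CPM in the Muscle SMMCs of donor 2 (11 UMIs), the others at 0 to 19.2, and HES1 at 197 CPM in the same donor's 18 lymphocytes (19 UMIs), the others at 0 to 73.9.

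The change from Muscle to P0 differed between types, by a test of the difference itself (edgeR, log2 scale), for 15 pairs of a gene and 2 types. Of all genes tested, 20% were called for SCs minus FAPs, 25.6% for VECs minus FAPs and 21.1% for VECs minus SCs. SCs minus FAPs gave 2.08 for NOTCH2, -3.12 for NOTCH3, -1.96 for DLL1 and -1.79 for HES1. VECs minus FAPs gave -2.98 for NOTCH1, 2.48 for NOTCH2, 2.55 for JAG1 and 1.22 for HES1. The NOTCH1 and NOTCH2 values rest on 9 NOTCH1 UMIs in FAPs and 4 NOTCH2 UMIs in VECs of Muscle. VECs minus SCs gave 1.97 for NOTCH1, 2.39 for NOTCH3, 2.81 for JAG1, 1.03 for DLL1, 2.18 for DLL4, 3.14 for HES1 and 1.46 for HEY1. The DLL1 difference between VECs and SCs was not called by DESeq2 (0.94), with RLE scaling (0.94), without the filter on low counts (0.78) or with donor as a block (0.995), and HEY1 not without the filter on low counts (1.21). DLL4 between VECs and SCs was not called without that filter (1.92) or in thinned sums (1.81), and HES1 between VECs and FAPs not in thinned sums (0.97).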

How the results depend on the processing

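No called value changed direction under any alternative run. Of 988 values for single genes that could be compared with an alternative, 940 stayed on their side of the thresholds, 42 lost a call and 6 gained one. Called genes that an alternative left untested are not among the 42, so more calls were lost than that. Thinning every sum to the smallest, which leaves fewer genes past the filter on low counts, cut the count of Notch genes called from 4 to 2 (FAPs, P0 v Muscle), 5 to 2 (SCs), 1 to 0 (macrophages), 2 to 0 (FAPs, P2 v P0), 1 to 0 (FAPs, P8 v P5), 1 to 0 and 6 to 1 (SCs v FAPs at P0 and P2), 4 to 1 (MYOG split, P2 and P5), 3 to 1 (MYOG split, Muscle), 4 to 1 (interactions, SCs and VECs against FAPs), 7 to 2 (VECs against SCs), and from 6 to 0 for the top type at P0. No filter on low counts gave 9 (SCs), 8 (SMMCs) and 2 (LECs) from Muscle to P0, 6 and 3 for SCs v FAPs in Muscle and at P0, and 4 for VECs minus SCs. Calls over all genes rose in each of these unfiltered runs (given in the next paragraph). The counts here, given without the share of all genes tested, do not set the Notch genes apart. With donor as a replicate block, HES1 in macrophages was not tested (0 called); beyond the values given above the block changed no other call. With at least 30 cells, 2 top types were called at P0, of which NOTCH2 was among the 6 and DLL1 (VECs over SCs, LECs having too few cells) was not. NOTCH3, JAG1, DLL4, HES1 and HEYL then had 4 donors, all with the top type higher. The exact test cannot go below p = 0.125 there, so these could not be called. FAPs from P5 to P8 had 0 calls with total UMIs and with sorted cultures alone, and the MYOG split at P2 had 0 with 1 MYOG UMI. Leaving out a donor gave 1 to 2 calls in LECs (2 without donor 8), 1 to 4 in the MYOG split at P2, 4 to 5 at P5 and 3 to 4 in Muscle.

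Over all genes, thinning and no filter moved the calls from Muscle to P0 from 3997 to 1647 and 6925 in FAPs, from 1789 to 499 and 5286 in SCs, from 2071 to 1131 and 5030 in VECs, from 1257 to 515 and 4216 in SMMCs, from 899 to 327 and 1863 in LECs and from 1003 to 466 and 3389 in macrophages. For SCs v FAPs they moved them from 887 to 320 and 2984 in Muscle, 1155 to 407 and 2052 at P0, and 1301 to 241 and 2529 at P2, and for SCs at P2 v P0 from 865 to 506 and 1473. Thinning alone moved FAPs at P8 v P5 from 221 to 88, the MYOG splits from 749 to 328 and 1393 to 627, and the interactions from 1754 to 425 and 2208 to 953; VECs minus SCs went from 1482 to 437 and, unfiltered, 2289, and the Muscle MYOG split from 526 to 207 and 1019. SCs at P5 v P2 had 21 calls, 6 thinned, 97 by DESeq2, 246 with the block and 367 in sorted cultures alone, where FAPs had 94 of 392 (P5 v P2) and 37 (P8 v P5). At least 30 cells gave 2177 in SMMCs. The MYOG split at P2 had 1159 calls with the block, 100 with 1 MYOG UMI, 237 without donor 5 and 275 without donor 6, and that at P5 627 with 1 MYOG UMI. With total UMIs as library size the share of higher calls went from 58.1% to 46.3% in FAPs at P2 v P0 and from 75.6% to 89.1% at P8 v P5, and the median of all genes lay at -0.11 and 0.13. Values that rest on a few UMIs, such as DLL4 in FAPs and SCs and NOTCH1 in FAPs from Muscle, are imprecise at this depth.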

Other observations

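DLK1, a membrane protein related to the Notch ligands and known in muscle and fat progenitors, had the largest change of the pathway genes tested from Muscle to P0 in FAPs and SCs. In FAPs it was at 974 CPM in Muscle (340 to 1748 over 10 donors) and 1.12 at P0 (log2 fold change -9.60, edgeR), and in SCs at 743 CPM (61.4 to 2049) and 1.19 (-10.37).

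HEY2, a HEY gene of vascular smooth muscle, was at 33.7 ± 16.8 CPM in SMMCs of Muscle and at 0 to 7.67 on average in the other types. HES5, NRARP and DLL3 averaged under 3 CPM in every type of Muscle. The 48 glial cells at P0 had HES1 at 33.9 CPM (95% counting interval 18.6 to 56.9) and JAG1 at 21.8 (9.98 to 41.4).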
